A study of Mus musculus with 12 samples.

Results

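The genes described here are the collagens other than type IV in isolated mouse glomeruli. They were taken from the gene tables by symbol, as every gene named Col, a number, a and a number, with the type IV genes left out. This gave 38 genes of the 28746 symbols in the tables of either sex, of which 37 were listed in the male tables and 37 in the female tables (Col9a1 was listed in males alone and Col9a2 in females alone). They were sorted into 11 fibril-forming collagens, 8 FACITs (fibril-associated collagens with interrupted triple helices) in the tables of each sex, 3 network-forming collagens and 15 of other classes, which are the beaded filament, transmembrane, multiplexin, anchoring fibril and remaining types.

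The mice fell into 4 groups. Male Alport syndrome (AS) mice carried the Col4a5 tm1Yseg allele on a B6.Cg background and are labelled Col4a5-/-. Male wild-type (WT) mice were C57BL/6J. Female AS mice were heterozygous for the same allele, labelled Col4a5+/-, and female WT mice were C57BL/6J. The labels give an age of 3.5 months for all of them, while the supplement of the paper gives a slightly different age for the males. No mouse was treated in this comparison. AS is an inherited disease of the glomerular basement membrane, caused here by loss of the X-linked chain Col4a5, and a heterozygous female is a mosaic of cells that use either X chromosome. Glomeruli were freed with collagenase and collected on strainers, so that tubule fragments can be carried along, and the labels do not say whether a library holds 1 mouse or several. Each group has 3 samples listed, but female WT replicate 3 repeated female WT replicate 1 in every value and was counted once, which leaves 3 AS and 3 WT male libraries and 3 AS and 2 WT female libraries. With groups of this size the p-values measure only the spread between these libraries, which may in part be technical.

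Collagens are trimers whose chains wind into a triple helix. Fibril-forming types assemble into the banded fibrils of interstitial matrix and scar, FACITs sit on the surface of such fibrils, network-forming type VIII makes sheets, type VI makes beaded filaments near basement membranes, and the multiplexins Col15a1 and Col18a1 belong to basement membrane zones of vessels and epithelia. A healthy glomerulus is rich in type IV collagen and holds little fibrillar collagen, whose deposition accompanies glomerular scarring.

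The deposited values are gene counts after TMM normalization (a trimmed mean that evens out library size), here called scaled values. They summed to between 14242206 and 23182937 per male library and between 16941020 and 20152078 per female library, which corresponds to 14494678 to 20309321 read pairs per library. Col4a5 itself stood at 572 to 727 in male AS libraries, against 1209 to 1854 in male WT libraries, and at 1187 to 1330 in female AS libraries, against 1752 to 2329 in female WT libraries. The headers of the female tables carry 1 code for AS and another for WT. What the code stands for is not stated, so whatever it marks cannot be told apart from genotype in females. Marker genes of cell types moved with the male comparison as well. The summed proximal tubule markers were 29398 to 59922 in male AS libraries, against 145715 to 268762 in male WT libraries (14 of 14 lower), the podocyte markers 367652 to 471781 against 162964 to 255322 (8 of 12 higher), the endothelial markers 99220 to 145114 against 44524 to 90478 (9 of 12 higher), and the mesangial markers 29863 to 41792 against 19260 to 32665 (3 of 13 higher, none lower). The parietal epithelial markers summed to 653 to 1304 in male AS libraries, against 1748 to 2866 in male WT libraries (5 of 6 lower), and those of the distal tubule and collecting duct to 24872 to 84883 against 67195 to 109954 (7 of 12 lower). In females these distal markers were 66392 to 89291 in AS libraries, against 24438 to 39928 in WT libraries (3 of 12 higher). The female mesangial markers summed to 31152 to 40724 in AS libraries, against 42834 to 53744 in WT libraries. Smooth muscle markers lay the other way in females, at 4549 to 6253 against 4043 to 4294, with no gene of either list called. Ren1 of this list averaged 1448 in female AS and 347 in female WT libraries. The higher female sum rests largely on this 1 gene. The male smooth muscle sum was 4240 to 4787 in AS, against 3417 to 3704 in WT libraries. Of 7 genes tested in males, 2 were called higher and 3 lower. The female sums of the other lists named above overlapped between the groups. The proximal tubule markers were used as a covariate in an alternative fit of the collagens, and the part of the other lists in the results was not tested. In bulk RNA fewer cells of a type and less RNA per cell cannot be told apart.

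Most of the collagen message other than type IV came from 3 genes. Levels were set side by side per kb of the longest coding transcript. Col18a1, Col1a2 and Col15a1 together made up 89.6% to 91.8% of the per-kb total of the members in male AS libraries, against 82.8% to 86.1% in male WT libraries, and 83.4% to 87.4% in female AS libraries, against 84.2% to 87.1% in female WT libraries. Col18a1, the precursor of endostatin, was the highest in every library but male AS replicate 2, where Col1a2 was. Its mean per-kb level over the female libraries was 1393, followed by Col1a2 with 701.2 and Col15a1 with 513.1, and then came Col8a1 with 112.7, Col6a3 with 92.5 and Col5a2 with 66.6. The ranges of neighbours in this order overlapped between Col1a2 (474 to 974) and Col15a1 (417 to 644). They also overlapped among Col8a1 (77.5 to 141), Col6a3 (66.2 to 120) and Col5a2 (38.9 to 100.1). Those of Col18a1 (1219 to 1557) and Col1a2 did not overlap in females. Over the male libraries they did, with Col18a1 at 886 to 1731 and Col1a2 at 281 to 1808.

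**Figure D1:**
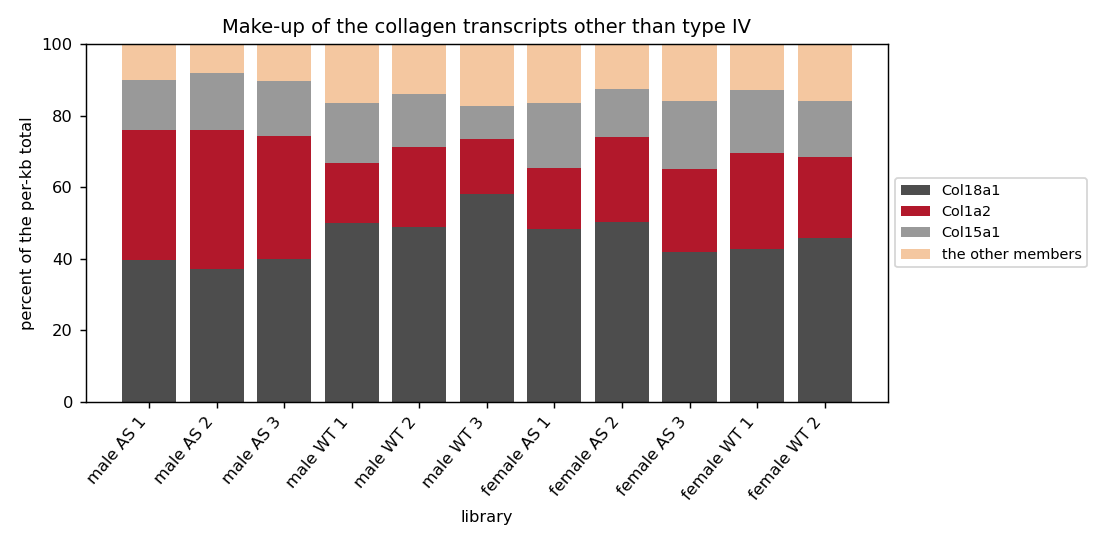
Share of the summed per-kb scaled values of all non-type-IV collagens, in percent (y axis), taken by Col18a1, Col1a2, Col15a1 and the other members in each library (x axis). Col1a2 takes 34.4% to 38.9% in the male AS libraries, 15.3% to 22.3% in the male WT libraries, 17.04% to 23.9% in the female AS libraries and 22.5% to 26.8% in the female WT libraries.

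The share of Col1a2, the alpha 2 chain of type I collagen, was 34.4% to 38.9% in male AS libraries, against 15.3% to 22.3% in male WT libraries. In females it was 17.04% to 23.9% in AS and 22.5% to 26.8% in WT, with overlapping ranges. Fibrillar collagens as a class took 37.8% to 41.3% in male AS libraries, against 20.4% to 25.9% in male WT libraries, and nearly all of this was Col1a2. FACITs never passed 2.86% and network-forming collagens never passed 5.13% of the total.

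In male glomeruli 8 collagens rose in AS, and none fell. These were the fibrillar Col1a2, Col5a3, Col1a1 and Col3a1, the FACIT Col16a1, the multiplexins Col15a1 and Col18a1, and the transmembrane Col13a1. Of the 37 members, 18 had at least 0.5 CPM (the value scaled to a common library total) in at least 3 libraries and were tested by limma over 15862 genes, with p-values adjusted by the Benjamini-Hochberg method. Among all genes tested 16.6% were called higher and 18.9% lower. Col1a1, Col5a3 and Col13a1 passed the filter only through the AS libraries and had to differ, so the count of 8 among 18 is a description. At an unadjusted p under 0.05 there were 10 higher and 0 lower, where 23.3% of all genes were higher and 25.0% lower. The same 8 genes had male AS libraries all above the male WT libraries, and the other 10 overlapped, where 53.2% of all genes tested did not overlap between the groups in one direction or the other.

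The count in males changed when a library was left out. Without an AS library Col1a1, Col5a3 and Col13a1 no longer reached the filter, which left 15 members tested. Of these, 3 passed without male AS replicate 2 and 3 without male AS replicate 3, in both cases Col1a2, Col3a1 and Col15a1, so that Col16a1 and Col18a1 were lost by the test and the other 3 were not tested. Without male AS replicate 1 there were 8, of which 6 were higher and Col26a1 and Col27a1 lower. With columns scaled to equal totals, which moved the median of all genes by 0.36 on the log2 scale and raised the share of higher calls among all calls to 78.8% from 46.8%, 12 members rose and 0 fell. With a covariate for proximal tubule markers 0 of the 18 members passed (4 at an unadjusted p under 0.05), and 0 of all 15862 genes did (694 unadjusted). The log2 fold changes with this covariate were 2.09 for Col1a1, 1.83 for Col3a1, 0.86 for Col5a3, 0.79 for Col1a2, 0.79 for Col13a1, 0.28 for Col18a1, 0.25 for Col16a1 and -0.07 for Col15a1, with adjusted p-values between 0.914 and 0.993 in limma. Those of Col1a1 and Col3a1 were larger than without it, and that of Col1a2 was smaller. The proximal tubule markers were fully apart between the male groups. Covariate and genotype can therefore hardly be told apart in this fit, and these sizes are a description.

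**Figure D2:**
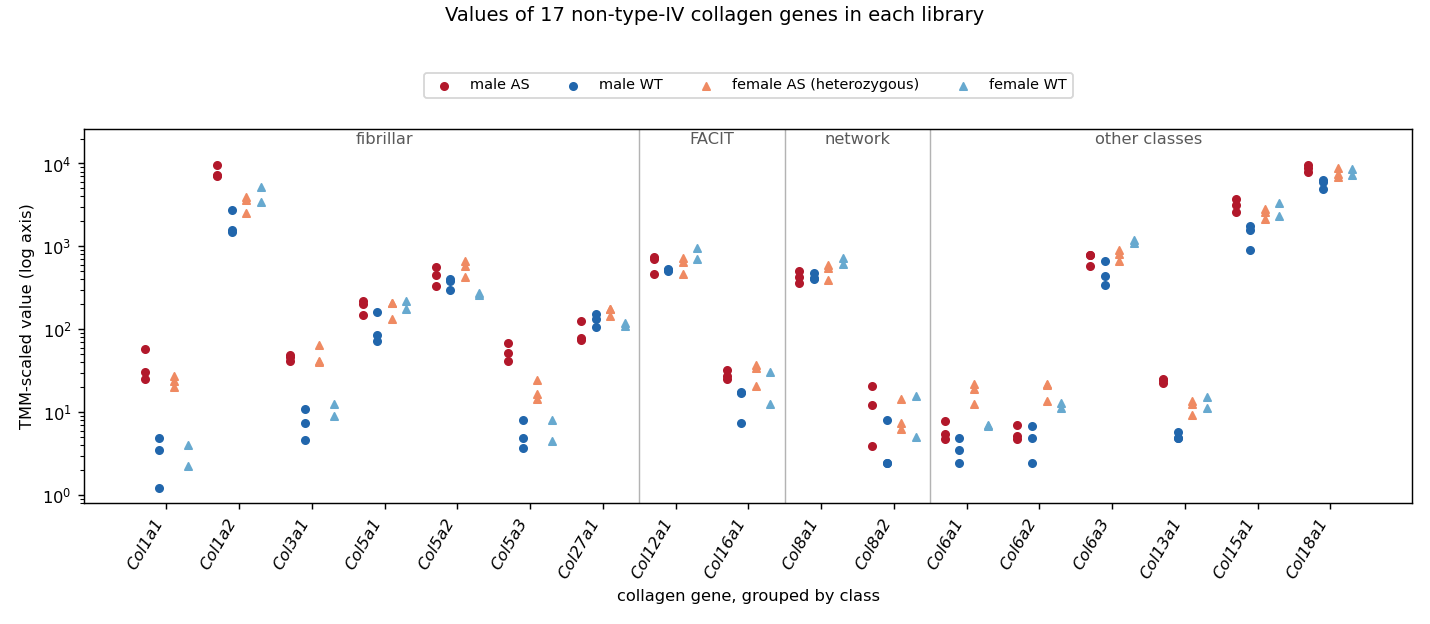
Scaled value on a log axis (y) of 17 collagen genes (x), grouped by class, with 1 point for each library of male AS, male WT, female AS and female WT mice. Col1a2, Col15a1 and Col18a1 lie at the top, at 902 and above in all libraries, while Col1a1, the partner chain of Col1a2, lies between 1.23 and 58.3.

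Col1a2 showed the largest fitted fold change in males among the members tested. It stood at 7013, 9669 and 7319 in male AS libraries, against 1593, 2719 and 1505 in male WT libraries. All 3 AS libraries lay above the highest WT library, and the log2 fold change was 2.07 ± 0.24 (SE, n = 3 and 3, limma adjusted p = 0.00392). In females the gene was at 2537, 3964 and 3626 in AS libraries, against 5208 and 3415 in WT libraries. These overlapped, with a log2 fold change of -0.35 ± 0.25 (limma adjusted p = 0.454), and the male minus female difference of 2.42 ± 0.39 passed the test (limma adjusted p = 0.0197). Without female WT replicate 1 this difference was 2.11, with an adjusted p of 0.124 in limma.

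Col1a1, which normally supplies most chains of the type I trimer, was near the limit of detection in WT glomeruli. It was at 30.2, 25.4 and 58.3 in male AS libraries, against 1.23, 3.46 and 4.85 in male WT libraries. These values are whole multiples of the smallest step in each table, within a tolerance of 0.01, and amount to 138 read pairs over the AS libraries and 8 over the WT libraries. The ratio of the 2 sums, scaled by the steps and so by TMM rather than by depth, was 11.7 (95% exact interval 5.76 to 27.6, counting error only). The fitted log2 fold change, which understates low genes, was 1.38 ± 0.23 (limma adjusted p = 0.00679, n = 3 and 3). Female AS libraries held 20.02, 23.6 and 27.0, against 4.03 and 2.26 in female WT libraries. That is 78 against 6 read pairs, a ratio of 7.32 (3.22 to 20.6), with a log2 fold change of 0.98 ± 0.16 (limma adjusted p = 0.0446). The difference between the sexes was 0.40 ± 0.30 on the log2 scale and did not pass the test (limma adjusted p = 0.345).

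Col3a1, the chain of the type III homotrimer of reticular fibres, was the other collagen that rose in both sexes. It was at 46.5, 41.3 and 49.6 in male AS libraries, against 7.38, 4.62 and 10.9 in male WT libraries, with a log2 fold change of 1.34 ± 0.16 (limma adjusted p = 0.00392, n = 3 and 3). In females it was at 41.7, 40.9 and 64.7 in AS libraries, against 9.06 and 12.4 in WT libraries, with a log2 fold change of 1.21 ± 0.20 (limma adjusted p = 0.0458). In each sex all AS libraries lay above all WT libraries. As read pairs the sums were 169 in male AS and 19 in male WT, a ratio of 6.02 (95% exact interval 3.74 to 10.3), and 162 in female AS and 20 in female WT, a ratio of 4.56 (2.86 to 7.67). The difference between the sexes was 0.12 ± 0.25 (limma adjusted p = 0.749).

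Col5a3, the least common chain of type V collagen, was at 41.1, 68.2 and 51.3 in male AS libraries, against 3.69, 8.08 and 4.85 in male WT libraries. The groups were apart, with a log2 fold change of 1.61 ± 0.18 (limma adjusted p = 0.00392, n = 3 and 3) and a ratio of summed read pairs of 9.57 (95% exact interval 5.57 to 17.8). Female AS libraries held 16.7, 24.5 and 14.5, against 8.05 and 4.52 in female WT libraries. They too were apart, but the log2 fold change of 0.59 ± 0.18 did not pass the test (limma adjusted p = 0.136). The male minus female difference was 1.02 ± 0.26 (limma adjusted p = 0.0270), and it was 0.91 with an adjusted p of 0.151 in limma without female WT replicate 1.

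**Figure D3:**
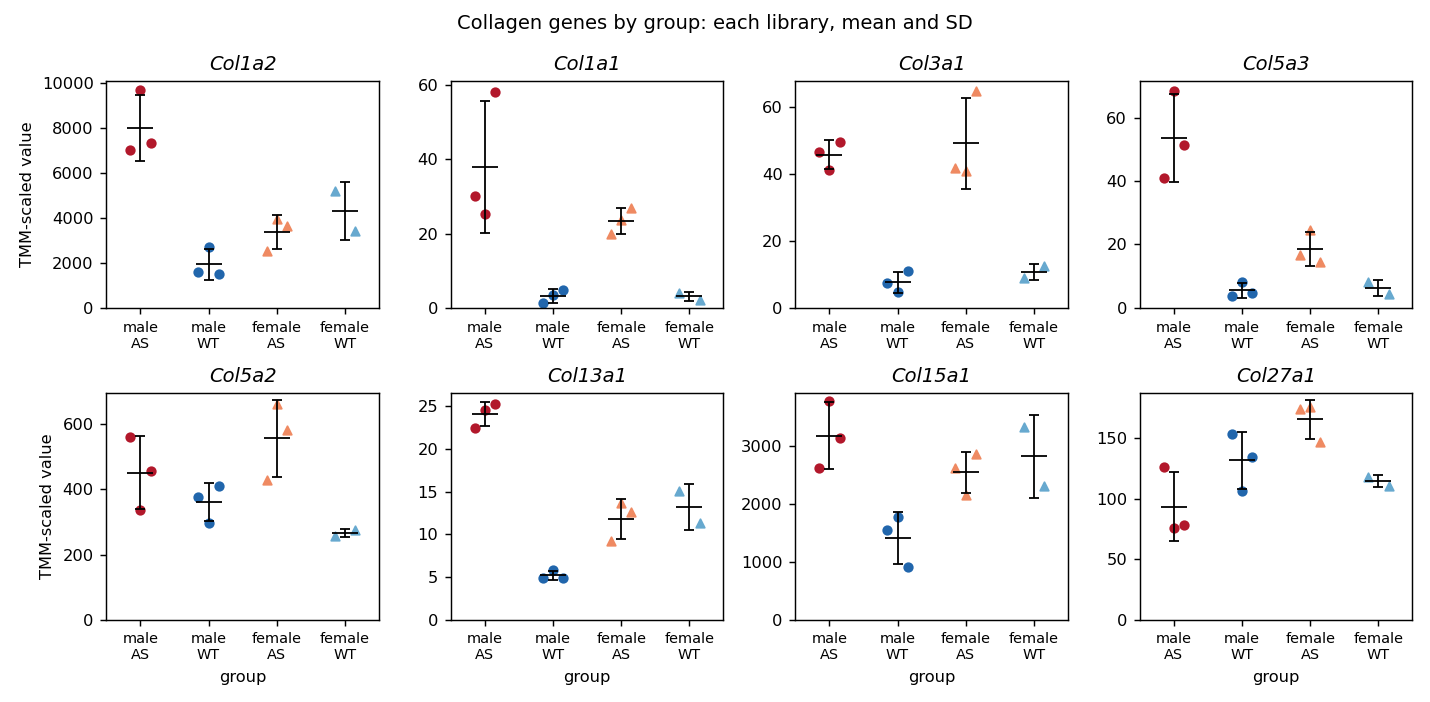
Scaled values (y axis, linear, starting at 0) of 8 collagen genes in the 4 groups (x axis), with a point for each library, a dash for the mean and bars for the SD. Col1a1 and Col3a1 are higher in AS than in WT libraries in both sexes without overlap, whereas Col1a2, Col13a1 and Col15a1 are apart in males and overlap in females.

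The sequence upstream of the start is shown for the fibrillar genes that rose in males and have an entry in the RefSeq promoter table of GRCm38.p6, because they moved together there while Col1a2 and Col5a3 differed between the sexes. Each line holds the 130 bases before the RefSeq start, 5′ to 3′ on the strand of the gene. Capitals mark the motif CCAAT, searched on both strands.
Col1a2 (chr6:4505488-4505617, plus strand): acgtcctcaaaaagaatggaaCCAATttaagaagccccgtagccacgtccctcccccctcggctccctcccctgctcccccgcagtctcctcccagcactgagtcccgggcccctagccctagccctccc
Col5a3 (chr9:20815068-20815197, minus strand): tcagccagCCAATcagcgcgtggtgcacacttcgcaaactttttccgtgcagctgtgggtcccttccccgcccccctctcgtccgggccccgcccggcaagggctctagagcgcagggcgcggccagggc
Col3a1 (chr1:45311408-45311537, plus strand): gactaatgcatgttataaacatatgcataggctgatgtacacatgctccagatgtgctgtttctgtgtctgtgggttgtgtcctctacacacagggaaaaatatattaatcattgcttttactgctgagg
CCAAT, the box bound by the factor NF-Y, was found in the entries of Col1a2 and Col5a3 and not in that of Col3a1. Among the other members whose effect differed between the sexes, Col18a1 had it in an entry, and Col13a1, Col15a1, Col6a3 and Col27a1 did not. Col16a1, which did not differ, had it. The search covered more bases upstream of the start than the 130 shown, and the motif of Col18a1 lay at -210. Searched in this way, CCAAT occurred in 33.9% of all 32851 promoter entries and in entries of 10 of the 30 members that have one, or 33.3%. Its presence in Col1a2 and Col5a3 is therefore a description. The motif TATAA was searched only on the strand of the gene, in a short window close before the start. A TATAA further upstream, as in the Col3a1 line, was not counted. Within this window it was found in 3.88% of all entries and in those of 1 of the 30 members.

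Col5a1 and Col5a2, which pair in the common form of type V collagen that nucleates fibrils, followed different patterns. Col5a1 was at 150.3, 217 and 204 in male AS libraries, against 84.9, 164 and 71.5 in male WT libraries. One WT library lay inside the AS range, and the log2 fold change of 0.80 ± 0.28 did not pass (limma adjusted p = 0.0571, n = 3 and 3). It was 1.11 without male WT replicate 2 and 0.95 without male AS replicate 1, with adjusted p of 0.00909 and 0.0443 in limma. The female values were 206, 134 and 208 in AS libraries, against 222 and 175 in WT libraries. Col5a2 was at 562, 337 and 457 in male AS libraries, against 378, 297 and 410 in male WT libraries, which overlapped. Female AS libraries held 429.6, 663 and 581, against 258 and 275 in female WT libraries. The female groups were apart by a log2 fold change of 1.00 ± 0.19, just short of the threshold (limma adjusted p = 0.0593, n = 3 and 2), and the difference between the sexes of -0.71 ± 0.30 did not pass (limma adjusted p = 0.110).

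Col27a1, a fibrillar collagen best known from cartilage, went opposite ways in the sexes. It was at 126, 75.4 and 78.3 in male AS libraries, against 154, 106 and 135 in male WT libraries (log2 fold change -0.44 ± 0.22, limma adjusted p = 0.145). In females it was at 174, 175.2 and 147 in AS libraries, against 118 and 111 in WT libraries (log2 fold change 0.47 ± 0.14, limma adjusted p = 0.131). Neither change passed alone, while the male minus female difference of -0.91 ± 0.28 did (limma adjusted p = 0.0401). It no longer passed in 9 of the 11 runs that left out a library, where the difference ranged between -1.11 and -0.80.

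The remaining fibrillar collagens lay under the filter in both sexes. Col2a1, the collagen of cartilage, was listed at 0 to 1.74. Col11a2 stood out among them, with 3.87, 3.97 and 1.74 in male AS libraries and 0 in all 3 male WT libraries. This is 12 read pairs against 0, a ratio of 2.71 when the WT group is set at a floor of 3 read pairs in all. The ratio leaves out the counting error of the 12 read pairs and is not a lower bound. In female AS libraries it was at 3.34, 2.72 and 2.90, against 0 and 1.13 in female WT libraries, or 10 read pairs against 1 (ratio 5.63, 95% exact interval 0.801 to 244). Col11a1, the chain it pairs with in cartilage, ran the other way, at 0.775, 0 and 0.870 in male AS libraries, against 3.69, 2.31 and 3.64 in male WT libraries. It was at 2.502, 2.72 and 1.93 in female AS libraries, against 9.06 and 4.52 in female WT libraries. Both genes were named after their values were seen.

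Of the FACITs, 3 passed the filter in males. Col16a1, which is found on fibrils and near vessel walls, was at 27.1, 32.5 and 25.2 in male AS libraries, against 7.38, 17.3 and 16.97 in male WT libraries. The groups were apart, with a log2 fold change of 0.56 ± 0.18 (limma adjusted p = 0.0438, n = 3 and 3), but the call was lost in 5 of the 6 runs that left out a library, where the adjusted p reached 0.142 in limma without male AS replicate 2. It was at 36.7, 20.9 and 33.8 in female AS libraries, against 30.2 and 12.4 in female WT libraries, which overlapped. Col12a1, a large FACIT of load-bearing tissue and the highest of the class, was at 464, 751 and 710 in male AS libraries, against 534, 518 and 504 in male WT libraries. It did not pass in males (log2 fold change 0.27 ± 0.18, limma adjusted p = 0.279), and without male AS replicate 1, its lowest AS library, the value was 0.48 with an adjusted p of 0.0340 in limma. The female values were 735, 468 and 642 in AS libraries, against 968 and 707 in WT libraries. Col14a1, the other FACIT tested in males, had a log2 fold change of 0.04 ± 0.14 (limma adjusted p = 0.823). The FACITs under the filter reached at most 12.1 in a male library (Col19a1) and 14.5 in a female one (Col14a1).

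**Figure D4:**
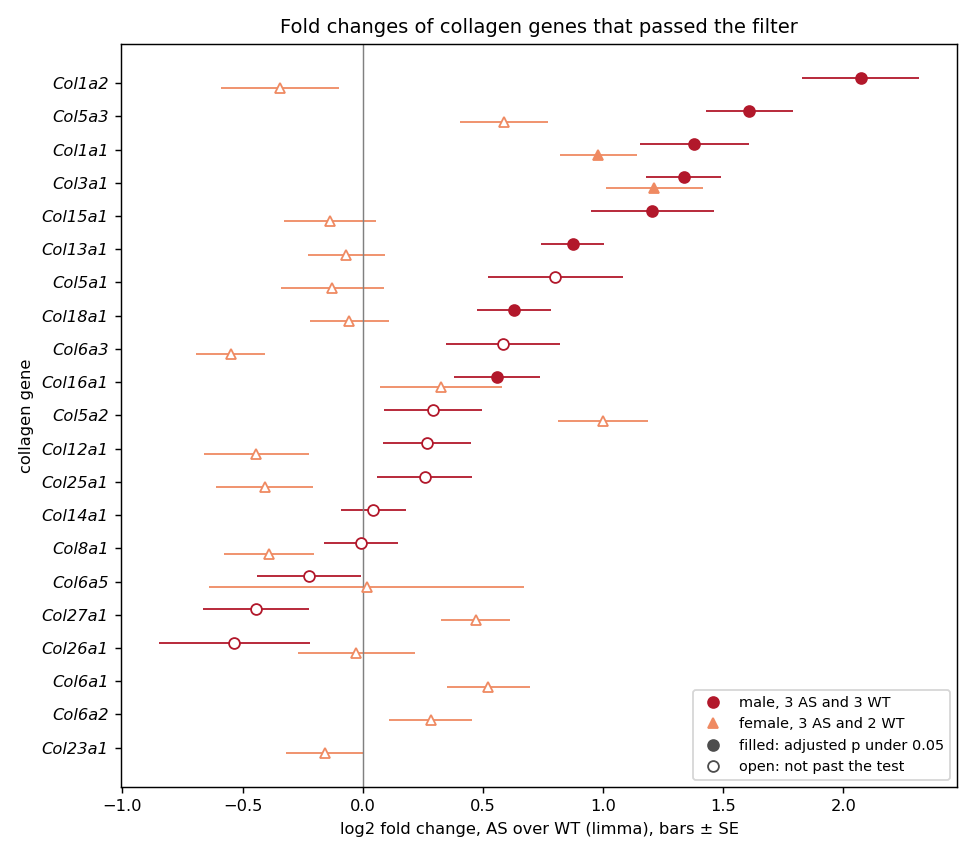
Log2 fold change of AS over WT with its SE (x axis) for each collagen that passed the filter (y axis), with circles for males and triangles for females and filled symbols where the limma adjusted p was under 0.05. Filled circles lie at 0.56 or higher and mark 8 genes, and the 2 filled triangles are Col1a1 and Col3a1.

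The 2 multiplexins rose in male AS mice. Col15a1, which ties basement membranes to the matrix beneath, was at 2616, 3777 and 3145 in male AS libraries, against 1556, 1770 and 902 in male WT libraries (log2 fold change 1.20 ± 0.26, limma adjusted p = 0.0122, n = 3 and 3). In females it was at 2614, 2158 and 2854 in AS libraries, against 3330 and 2312 in WT libraries, which overlapped, and the male minus female difference was 1.34 ± 0.37 (limma adjusted p = 0.0306). Col18a1 was at 7973, 9682 and 8874 in male AS libraries, against 4957, 6238 and 5971 in male WT libraries (log2 fold change 0.63 ± 0.15, limma adjusted p = 0.0185). Female AS libraries held 7503, 8711 and 6822, against 8672 and 7271 in female WT libraries, and the male minus female difference was 0.68 ± 0.22 (limma adjusted p = 0.0459). Part of Col18a1 overlaps Slc19a1 on the opposite strand, which reached 1050 in a male library, and whether counting used strand is not given in the sources used here. In males the calls of Col18a1 were lost without male WT replicate 1, male AS replicate 2 or male AS replicate 3, with adjusted p-values up to 0.0744 in limma.

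Col13a1, a transmembrane collagen that is anchored in the plasma membrane, had the tightest male groups. It was at 22.5, 24.6 and 25.2 in male AS libraries, against 4.92, 5.77 and 4.85 in male WT libraries. The log2 fold change was 0.87 ± 0.13 (limma adjusted p = 0.00579, n = 3 and 3), and 89 read pairs against 13 gave a ratio of 4.63 (95% exact interval 2.58 to 9.04). Female AS libraries held 9.18, 13.6 and 12.6, against 15.1 and 11.3 in female WT libraries, so that both female groups lay between the male ones. The male minus female difference was 0.94 ± 0.19 (limma adjusted p = 0.0200).

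The beaded filament chains of type VI differed by chain. Col6a3, the long chain, was at 577, 781 and 782 in male AS libraries, against 443, 662 and 344 in male WT libraries (log2 fold change 0.58 ± 0.24, limma adjusted p = 0.0889). Female libraries ran the other way, with 894, 669 and 800.4 in AS libraries, against 1211 and 1098 in WT libraries, and all AS libraries lay below the WT libraries (log2 fold change -0.55 ± 0.14, limma adjusted p = 0.10, n = 3 and 2). Neither passed alone, while their difference of 1.13 ± 0.32 did (limma adjusted p = 0.0326). Col6a1 and Col6a2, the short chains with which Col6a3 forms the trimer, were far lower. Col6a1 was at 5.42, 4.76 and 7.83 in male AS libraries, against 2.46, 3.46 and 4.85 in male WT libraries, and at 21.7, 12.7 and 19.3 in female AS libraries, against 7.05 and 6.78 in female WT libraries. Its female log2 fold change was 0.52 ± 0.17 (limma adjusted p = 0.153). Col6a2 was at 6.97, 4.76 and 5.22 in male AS libraries, against 2.46, 6.93 and 4.85 in male WT libraries, and at 21.7, 13.6 and 21.2 in female AS libraries, against 13.1 and 11.3 in female WT libraries (log2 fold change 0.28 ± 0.17, limma adjusted p = 0.380). Col6a5 varied most between female AS libraries, with 290.3, 38.1 and 65.7, against 114 and 76.8 in female WT libraries.

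Col8a1, the chain of the hexagonal network found under endothelium, had male group means that differed by less than their SD. It was at 366, 424 and 512 in male AS libraries, against 402, 419 and 479 in male WT libraries (log2 fold change -0.01 ± 0.15, limma adjusted p = 0.976). With columns scaled to equal totals the sign turned, with 0.39 and an adjusted p of 0.149 in limma. In females it was at 546, 396 and 597 in AS libraries, against 618 and 722 in WT libraries, all AS libraries below the WT ones (log2 fold change -0.39 ± 0.19, limma adjusted p = 0.277). Col8a2, its partner chain, was at 3.87, 20.6 and 12.2 in male AS libraries, against 2.46, 8.08 and 2.42 in male WT libraries, and at 7.51, 6.36 and 14.5 in female AS libraries, against 5.03 and 15.8 in female WT libraries. Col10a1, the network collagen of growth plate cartilage, reached 3.10 at most and overlaps Nt5dc1 on the opposite strand.

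**Figure D5:**
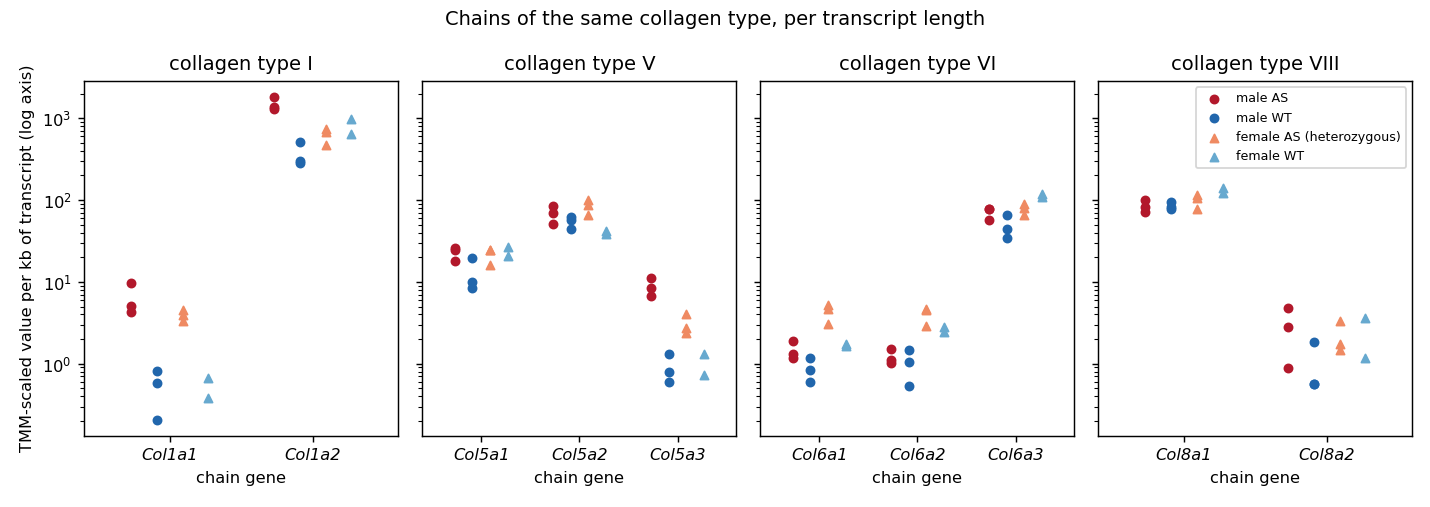
Scaled value per kb of transcript on a log axis (y) for the chain genes of collagen types I, V, VI and VIII (x), with a point for each library of the 4 groups. Col1a2 lies 139 to 1675 times above Col1a1, and Col6a3 16.7 to 77.5 times above Col6a1.

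Chains that share a trimer were listed at very unequal levels. Per kb of transcript, Col1a2 exceeded Col1a1 by 257, 422 and 139 times in male AS libraries, against 1436, 870.4 and 344 times in male WT libraries. In females the excess was 140.5, 186 and 149 times in AS libraries, against 1434 and 1675 times in WT libraries. Col6a3 exceeded Col6a1 by 43.2, 66.5 and 40.5 times in male AS libraries, against 73.0, 77.5 and 28.8 times in male WT libraries. The female values were 16.7, 21.4 and 16.8 times in AS libraries, against 69.7 and 65.7 times in WT libraries. What gives such unequal levels was not tested.

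Log2 ratios of partner chains were compared within each sex by exact two-sided permutation tests, which cannot go below p = 0.1 with 3 libraries against 3 or against 2. There were 8 such comparisons, of pairs whose chains both passed the filter, and none could pass a threshold of 0.05. Col1a1 in both sexes and Col6a1 in females passed the filter only through the AS libraries. The ratios that hold these chains are therefore a description. The log2 ratio of Col1a1 to Col1a2, with the pseudocount, was -6.34 ± 0.26 in female AS libraries and -7.66 ± 0.34 in female WT libraries (SD, n = 3 and 2, exact p = 0.1). The ratio in males was -7.21 ± 0.61 in AS libraries and -6.51 ± 0.48 in WT libraries (exact p = 0.2, n = 3 and 3), a difference of -0.69 that turned to 0.36 with a pseudocount of 0.25 CPM. Col1a1 lay below the pseudocount of 17.6 in all male WT libraries, so the male direction rests on the pseudocount. The per-kb ratios given above, which have none, mostly went the other way. For Col6a3 to Col6a1 the ratio was 4.50 ± 0.03 in female AS libraries and 5.57 ± 0.09 in female WT libraries (exact p = 0.1, n = 3 and 2). Col5a1 to Col5a2 gave -1.52 ± 0.59 in female AS libraries and -0.40 ± 0.28 in female WT libraries (exact p = 0.2), and -1.16 ± 0.60 in male AS libraries and -1.67 ± 0.77 in male WT libraries (exact p = 0.4). In females the AS and WT libraries were apart in the first of these, in the type VI and in the type V ratio. Benjamini-Hochberg adjustment over the 8 cannot lower these values.

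In heterozygous female glomeruli 2 collagens passed the test, Col1a1 and Col3a1, and both were higher in AS. They were among 20 members tested of 37, where 1.41% of the 15784 genes tested passed in either direction. Col1a1, Col5a3 and Col6a1 passed the filter only through the AS libraries and had to differ, so the call of Col1a1 is a description. Col3a1 also reached the filter level in WT libraries. With only 2 of these, however, every gene needed an AS library to be tested. The adjusted p of Col3a1 in limma was 0.0648 with a filter of 2 CPM and 0.115 with no filter. None fell, and at an unadjusted p under 0.05 there were 6 higher and 1 lower, where 11.4% of all genes were higher and 10.4% lower. Between the groups 10 of the 20 did not overlap, 7 with AS above WT and 3 below, where 40.4% of all genes tested did not overlap. Without female WT replicate 1, 0 of the 20 members passed in limma (7 unadjusted). Without an AS library Col1a1, Col5a3 and Col6a1 did not reach the filter and were not tested, and 0 of the other 17 members passed in limma without replicate 1 (6 unadjusted), replicate 2 (3) or replicate 3 (5), where the adjusted p of Col3a1 was between 0.115 and 0.156. With the repeated library kept as its own sample 7 members passed.

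For the difference between the male and the female effect, 7 of 17 members tested in both sexes passed, where 23.2% of the 15473 genes did. Col1a2, Col15a1, Col6a3, Col5a3, Col13a1 and Col18a1 changed more upward in males and Col27a1 more downward. Col5a3 and Col13a1 passed the filter in males only through the AS libraries, so their differences are a description. The count was 0 of 17 without female WT replicate 1 (7 at an unadjusted p under 0.05 in limma) and 2 of 17 without male WT replicate 1 or 3. Without male AS replicate 2 or 3 it was 1 of the 14 members that still reached the filter, and Col5a3 and Col13a1 were not tested there. Without a female AS library 15 members were tested, Col5a3 not among them, and 2 passed without replicate 2 or 3 and 3 without replicate 1. Female levels of several of these genes were not at the male WT level. Col1a2 was at 3415 to 5208 in female WT libraries and 1505 to 2719 in male WT libraries, and Col15a1 at 2312 to 3330 in female WT libraries and 902 to 1770 in male WT libraries. The tables of the sexes may have been scaled apart, so these levels are set side by side without a test.

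Genes that modify, fold, export or bind collagen were compared in 3 lists of 44 genes in all. In males 36 were tested, 10 rose and 4 fell, where 16.6% of all genes rose and 18.9% fell, so the 14 calls together were near the share over all genes. In females 38 were tested, limma called 0 higher (1 with unadjusted p below 0.05) and 1 fell, where 1.41% of all genes passed in either direction. Among the hydroxylases and helix chaperones 7 of 16 tested rose and 1 fell in males, with a median log2 fold change of 0.27, where the median of all genes was 0.00. The prolyl 3-hydroxylase P3h1 was at 926, 1341 and 1049 in male AS libraries, against 403, 554 and 402 in male WT libraries (log2 fold change 1.25 ± 0.18, limma adjusted p = 0.00566). Colgalt2, which adds galactose to hydroxylysine, was at 1954, 2281 and 2192 in male AS libraries, against 852, 1037 and 770 in male WT libraries (1.26 ± 0.14, limma adjusted p = 0.00392). The immunophilin Fkbp10 and the Leprecan-family protein P3h4 rose by 0.68 and 0.57 on the log2 scale. P4ha1, a catalytic subunit of the prolyl 4-hydroxylase that stabilizes the helix, fell by 0.53 (limma adjusted p = 0.0153), and the collagen chaperone Serpinh1 had a fold change of 0.01 ± 0.19 (limma adjusted p = 0.966).

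Among the export and procollagen cleavage genes 2 of 8 tested rose and 1 fell in males, with a median of 0.22, which is near the share of calls over all genes. Creb3l1, a transcription factor that drives secretion of collagen in bone, was at 448, 608 and 505 in male AS libraries, against 316, 221 and 165 in male WT libraries (log2 fold change 1.13 ± 0.23, limma adjusted p = 0.0107). Bmp1, the procollagen C-proteinase, was at 304, 399.96 and 342 in male AS libraries, against 184, 238 and 114 in male WT libraries (0.94 ± 0.25, limma adjusted p = 0.0227). Mia2, a large cargo receptor at the exit sites of the endoplasmic reticulum, fell by 1.35 (limma adjusted p = 0.00677). In the list of fibril-binding matrix proteins 1 of 12 tested rose and 2 fell in males, with a median of -0.17, no more than the share over all genes. Sparc, which binds collagen and basement membranes, was at 31136, 44875 and 37809 in male AS libraries, against 16924, 20271 and 11306 in male WT libraries (1.25 ± 0.27, limma adjusted p = 0.0133). The small leucine-rich proteoglycans Podn and Omd fell by 0.94 and 0.90.

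In females the 1 processing gene that passed was P4ha2, a second catalytic subunit of the prolyl 4-hydroxylase. It was at 400.4, 444 and 420.0 in female AS libraries, against 771 and 679 in female WT libraries (log2 fold change -0.76 ± 0.12, limma adjusted p = 0.0409). The medians of the 3 lists in females were -0.26 for hydroxylases and chaperones, -0.06 for export and cleavage and -0.12 for fibril-binding proteins, where that of all genes was -0.01. At an unadjusted p under 0.05, 9 of the 38 processing genes were lower in female AS mice, where 10.4% of all genes were. In males the 14 calls fell to 0 with the proximal tubule covariate (2 unadjusted) and were 6 without male AS replicate 2 or 3, 8 without male WT replicate 1 or 3, and 22 with equal column totals.

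Of the 10 stromal and fibroblast markers, 6 were tested in males, and Pi16 and Postn rose. Pi16 was at 2964, 4283 and 3311 in male AS libraries, against 1683, 2777 and 1335 in male WT libraries (log2 fold change 0.91 ± 0.27, limma adjusted p = 0.0331). Postn, which encodes periostin, averaged 43.3 in male AS libraries and 15.8 in male WT libraries (log2 fold change 0.91 ± 0.24, limma adjusted p = 0.0223). Pdgfra, a receptor of stromal cells, was at 627 to 955 in male AS libraries, against 700.5 to 1342 in male WT libraries, and at 1051 to 1515 in female AS libraries, against 1877 to 2559 in female WT libraries. Other members of the list were low. Decorin (Dcn) was at 10.3 to 22.5 in male AS libraries, against 20.8 to 41.8 in male WT libraries, and lumican (Lum) at 1.55 to 1.74 against 0 to 1.23. Dermatopontin (Dpt) did not pass 2.32 in any male library. The sum over the list was 3745 to 5325 in male AS libraries, against 2128 to 4221 in male WT libraries. Most of it was Pi16, which averaged 3519 in male AS and 1931 in male WT libraries. The sum therefore hardly speaks for the other members, and which cells hold Pi16 was not tested. In females the sum was 3879 to 4422 in AS libraries, against 4141 to 5829 in WT libraries. Of the 6 markers tested in females 1 rose, Scara5, and 0 fell. Scara5 averaged 45.1 in female AS libraries and 9.49 in female WT libraries (log2 fold change 1.20 ± 0.18, limma adjusted p = 0.0409).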

How the data were processed

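RNA of isolated glomeruli (polyA-selected, stranded kit, paired-end) was sequenced by the authors. The submitters name FastQC, cutadapt, STAR, Partek and the mm10 build, and give no versions. In the deposited tables, 1 per sample, the signal of a gene is its TMM-normalized count. Columns of the authors' own comparisons were not used. Whether counting used strand is not given in the sources used here. Low values are whole multiples of a step in 78.7% to 81.4% of cases (tolerance 0.01), so depth was estimated as the column total divided by the step, and read pairs of a gene as value divided by step. For the members, 174 of 185 male and 147 of 156 female values above 0 were whole. Ratios of summed read pairs were scaled by the steps of the libraries, which carry the TMM scaling, and not by depth. Intervals and floors cover counting error only.

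Rows whose symbol had been turned into a date (22 male, 23 female) were left out, and values under 1e-06 were set to 0. Tests used limma 3.58.1 in R 4.3.3 with a mean-variance trend on log2(value + pseudocount), where the pseudocount was 1 CPM of the mean column total (17.6 in males, 17.8 in females). Fold changes are on this scale and understate low genes. Genes needed 0.5 CPM in at least 3 libraries. P-values were two-sided, adjusted by Benjamini-Hochberg over all genes tested, and called under 0.05. The code was tested on simulated data. Positions and transcript lengths came from GENCODE M21 (GRCm38), which held 97.4% of male and 97.5% of female symbols, and promoters from RefSeq. Sums, ratios and plots used Python 3.11.15 with numpy 2.4.6, scipy and matplotlib.

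Values per library are given for members past a test, partner chains and the 2 highest per kb in each class, and for up to 4 processing genes of each list and direction. Naming genes of similar pattern was left out, since the libraries fall into 2 groups. Members and lists were chosen with earlier results of these data known. Alternatives covered pseudocount, filter, scaling, trend, replicate block, a tubule covariate and left-out libraries.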

Additional observations from a re-analysis of the deposited data

Results flagged for a closer look

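For 7 members the effect of AS differed between the sexes by the test of the difference itself (male minus female log2 fold change, limma, 3 AS and 3 WT males, 3 AS and 2 WT females). The differences were 2.42 for Col1a2 (adjusted p = 0.0197), 0.94 for Col13a1 (0.0200), 1.02 for Col5a3 (0.0270), 1.34 for Col15a1 (0.0306), 1.13 for Col6a3 (0.0326), -0.91 for Col27a1 (0.0401) and 0.68 for Col18a1 (0.0459). In males Col13a1 and Col5a3 passed the filter only through the AS libraries where they are high, so their differences are a description. Every one of the 7 missed the threshold without female WT replicate 1, where the adjusted p was between 0.124 and 0.207. Sex is confounded here with the dose of the allele (Col4a5-/- males and heterozygous females), and in females the code in the table headers with genotype. These cannot be told apart.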

How the results depend on the processing

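Deviations of same-numbered male libraries correlated by 0.05, 0.52 and 0.06 and of female ones by 0.26 and -0.05. Deviations from the mean of so few libraries depend on each other, so these values cannot decide whether replicate numbers pair the libraries. With a replicate block the calls over all genes rose to 6407 from 5636 in males and to 881 from 222 in females. With a replicate block 10 members passed in males, 3 in females and 7 for the difference, and 14 and 1 processing genes in males and females. Males gave 5 members with a filter of 2 CPM (fewer genes tested) and 0 with the tubule covariate, and 3 to 10 when a library was left out. Leaving out an AS library also took 3 members below the filter in that sex. Females gave 0 with a pseudocount of 4 CPM, no filter, a filter of 2 CPM or quantile normalization, 4 with the covariate, 7 with the repeat kept, and 0 to 3 with a library left out. The difference gave 3 with no filter, 0 with the covariate and 0 to 9 with a library left out. Processing genes in males were 22 with equal column totals, 0 with the covariate and 6 to 16 with a library left out. In females they were 0 with no filter, quantile normalization or equal totals, 6 with the covariate, 9 with the repeat kept and 0 to 1 with a library left out. Col15a1 in males reversed to -0.0712 with the covariate, which can hardly be told apart from genotype in males. Of the ratio differences, male Col1a1 to Col1a2 (-0.69) reversed to 0.355 with a pseudocount of 0.25 CPM and was -0.998 to -0.39 with a library left out. Male Col3a1 to Col1a1 (-0.04) reversed to 0.0278 with 4 CPM and 0.00606 with quantile normalization, and was -0.15 to 0.16 with a library left out. The female one (0.23) reversed to -0.0878 with 0.25 CPM. The causes were not tested. Equal totals moved the median of all genes by 0.36 in males and 0.13 in females. Low members such as Col1a1 rest on 1 to 4 read pairs per WT library, and 3 against 2 libraries limit the female comparison.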
